A study of Homo sapiens with 11 samples.

Results

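The DNA replication genes described here are 39 genes listed by name, which code for the MCM helicase, the factors that load and activate it, the GINS complex, the sliding clamp and its loader, the replicative polymerases and primase, the single-strand binding protein RPA, the enzymes that finish Okazaki fragments, and enzymes of nucleotide supply. Each of the 39 symbols had a row among the 31325 rows of the deposited expression table. The list was drawn up by function, but with earlier results of these data known. mRNA levels had been measured on 11 Illumina BeadChip arrays in cells transfected with a mimic of miR-365a-3p or with a control miRNA. The cells were MDA-MB-231, a human breast cancer line, with 3 miR-365a-3p arrays and 3 control arrays, and SKOV3, a human ovarian cancer line, with 3 miR-365a-3p arrays and 2 control arrays. Transfection lasted 48 h in all groups by the sample labels and 24 h by the series' own design text, and the paper calls the ovarian line SKOV3.ip1. Neither the labels nor the paper say that arrays of a group came from separate cultures, so p-values measure only the spread between these arrays, which may be technical. RNA came from whole cultures, in which fewer cells in S phase and less mRNA per cell cannot be told apart.

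Replication begins where the origin recognition complex, with CDC6 and CDT1, loads the ring of MCM2 to MCM7 onto DNA. CDC45 and GINS join the ring to make the active helicase, primase with polymerase alpha lays down primers, and polymerases epsilon and delta extend them on the leading and lagging strands, held to DNA by the PCNA clamp that the RFC complex loads. Many of these genes are transcribed late in G1 and in S phase under E2F factors, and proliferating tumour cells as a rule express them strongly.

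The mature miRNA that the mimic stands for is shown first, from RefSeq, since every comparison rests on it, with the seed (bases 2 to 8) in capitals. It lies at chr16:14309340-14309361 on the plus strand (GRCh38.p14), and miR-365b-3p, at chr17:31575478-31575499 on the plus strand, has the same sequence.
miR-365a-3p: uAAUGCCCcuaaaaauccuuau

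Next are 60-base stretches of promoters (RefSeq, GRCh38.p14) that hold letters of the E2F type, shown for 5 genes that fell in at least 1 cell line and 2 that rose in both, because the same letters stood before genes that moved in opposite directions. The letters searched for were TTTCCCGC, TTTCGCGC, TTTGCCGC and TTTGGCGC on both strands, in windows from 250 bases before to 50 bases after each gene's start, and matches are in capitals. In MCM6 the capitals are 2 matches that overlap. A match describes the sequence and is no evidence of a bound site.
MCM3 (chr6:52284883-52284942, minus strand): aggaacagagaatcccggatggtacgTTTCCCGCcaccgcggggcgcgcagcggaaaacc
MCM6 (chr2:135876562-135876621, minus strand): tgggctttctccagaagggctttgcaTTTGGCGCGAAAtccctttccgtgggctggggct
MCM7 (chr7:100101551-100101610, minus strand): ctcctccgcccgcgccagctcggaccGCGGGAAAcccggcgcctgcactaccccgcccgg
CDT1 (chr16:88803728-88803787, plus strand): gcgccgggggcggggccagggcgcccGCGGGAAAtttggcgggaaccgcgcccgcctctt
POLE (chr12:132687343-132687402, minus strand): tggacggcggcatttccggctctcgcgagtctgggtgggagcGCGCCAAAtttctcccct
RFC3 (chr13:33818068-33818127, plus strand): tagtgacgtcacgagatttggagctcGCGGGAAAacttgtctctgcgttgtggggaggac
GINS2 (chr16:85688955-85689014, minus strand): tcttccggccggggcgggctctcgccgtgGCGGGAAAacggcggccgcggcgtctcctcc

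Of the 39 genes, 33 were in the promoter table, and 18 of them (54.5%) held such letters, beside 855 of 15843 protein-coding genes (5.4%). MCM4, MCM5, GINS4, POLD3, RPA2 and RPA3 were not in the table. The CCAAT box, in either strand, was in 19 of the 33 (57.6%) and in 6676 of the 15843 (42.1%). All 4 helicase ring genes in the table (MCM2, MCM3, MCM6 and MCM7) held the E2F letters.

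Values below are log2 signals after quantile normalization across the 11 arrays, and a difference is miR-365a-3p minus control. A gene is called where the adjusted p over all 31325 rows was below 0.05. On the values as deposited, the 75th percentile of the miR-365a-3p arrays was 7.56 to 7.65 in MDA-MB-231, against 7.86 to 7.93 in controls, and 7.67 to 7.80 against 7.98 to 8.04 in SKOV3, so the calls were also made on deposited values. Of 4 markers of each line, ERBB2, PAX8 and EPCAM were called higher in SKOV3 controls and FOSL1 and EGFR in MDA-MB-231 controls, whereas KRT7, VIM and CD44 did not pass the test. The 5 markers of blood and endothelial cells had group means of 7.25 to 7.47, near the floor of the arrays (7.4341) in every group but PECAM1 in treated MDA-MB-231 (7.47), and 0 of 5 were called in any comparison.

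In MDA-MB-231, 17 of the 39 genes (43.6%) fell with miR-365a-3p and 6 (15.4%) rose, where 11.7% of all rows were called lower and 14.4% higher. In SKOV3 1 gene (2.56%) fell and 10 (25.6%) rose, where 7.11% of all rows were called lower and 7.25% higher. The genes that rose in both lines numbered 6 (15.4%, against 5.76% of all rows), and 1 (2.56%, against 5.39%) fell in both. The median difference of the 39 genes was -0.17 in MDA-MB-231 and 0.12 in SKOV3, and that of all rows was 0.01 in each. The 2 comparisons share no arrays, but the spread was estimated over all 4 groups. For 12 of the 39 genes no call was made in either line. The mean over the 11 arrays was above the floor of the arrays, the 60th percentile of all values, for 38 of the 39 genes. Of all 31325 rows, 12946 lay above the floor. The shares called among rows above the floor were not counted. The shares of all rows called, here and below, are thus no base rate for genes above the floor. How far the shares of the 39 genes depart from such a rate was not tested.

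**Figure D1:**
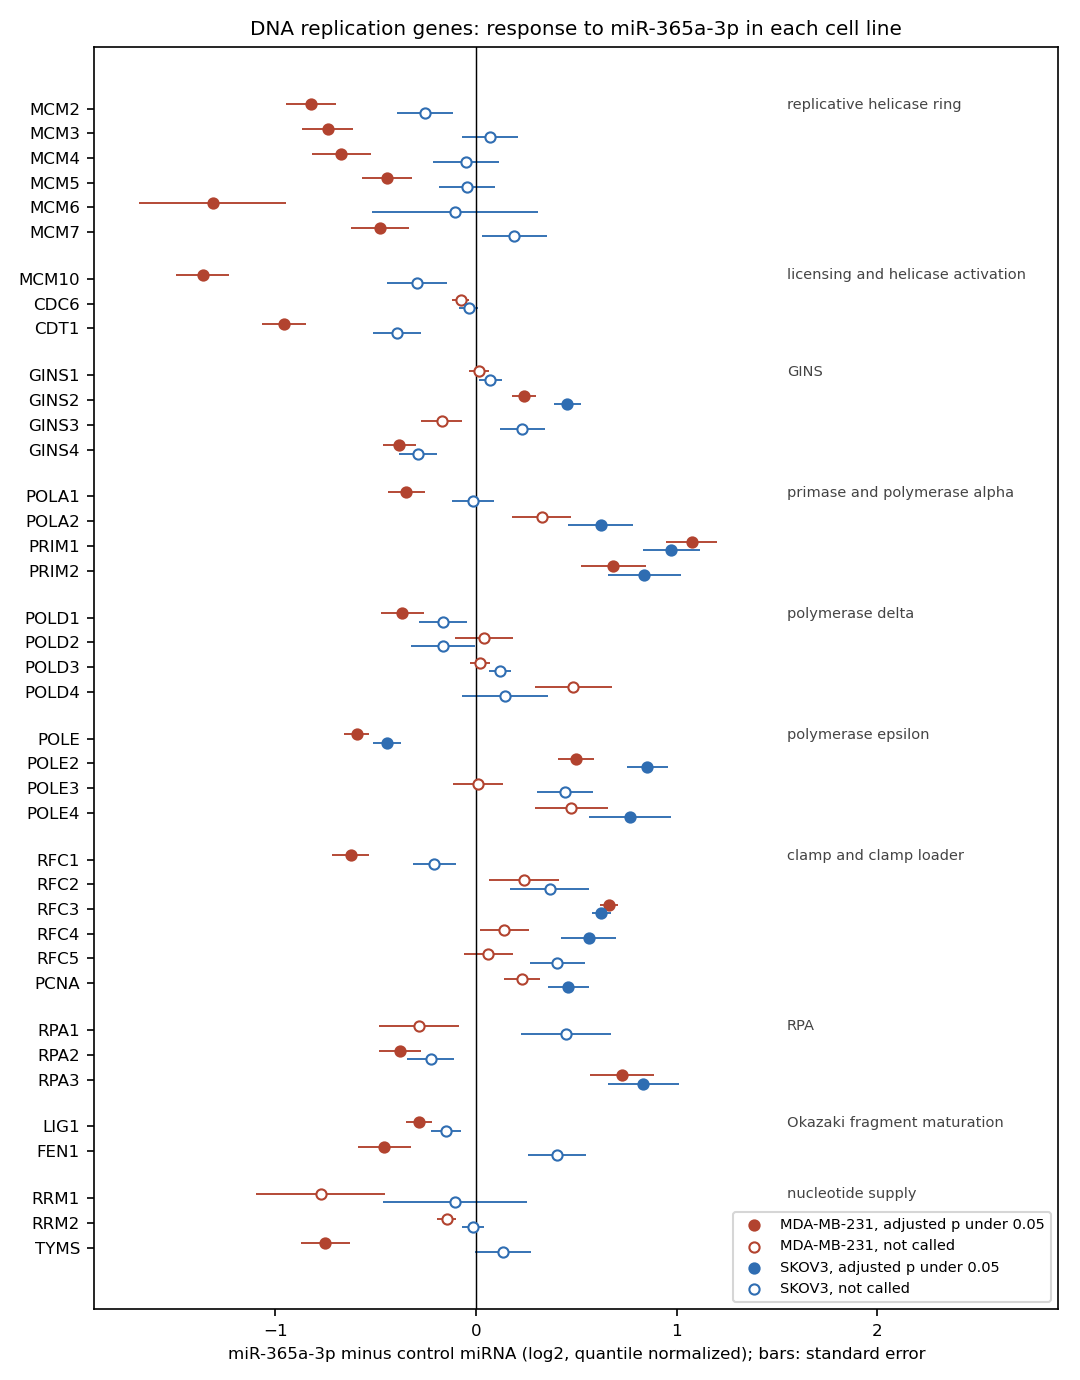
Difference between miR-365a-3p and control (log2, x axis) for each of the 39 genes, grouped by role, with standard errors as bars, MDA-MB-231 in red and SKOV3 in blue, and filled points where the adjusted p was below 0.05. All 6 helicase ring genes lie left of 0 and are filled in MDA-MB-231 and are open in SKOV3, while PRIM1, PRIM2, POLE2, RFC3, RPA3 and GINS2 are filled and right of 0 in both.

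The number of calls depended on the scaling and on single arrays, which were left out 1 at a time. On deposited values 21 genes fell and 4 rose in MDA-MB-231, so that falls made up 84.0% of the calls against 73.9% after quantile normalization, and 83.3% with arrays centred on their medians. In SKOV3 7 genes fell and 8 rose on deposited values, so that falls made up 46.7% of the calls against 9.09%, 42.9% with centred arrays and 27.3% with cyclic loess. Shares of all rows called were counted after quantile normalization only, so these counts cannot be set beside all rows under the other scalings. The rows above the floor had a median difference of 0.05 in MDA-MB-231 and 0.05 in SKOV3 after quantile normalization, and -0.10 and -0.08 on deposited values, whereas the median of the 39 genes was -0.40 and -0.01 on deposited values. The genes added to the falls in MDA-MB-231 on deposited values were CDC6 (-0.14), GINS3 (-0.47), POLD3 (-0.22) and RRM2 (-0.40), and GINS2 and PRIM2 were no longer called higher. In SKOV3 MCM10 (-0.54), CDT1 (-0.65), GINS4 (-0.59), RFC1 (-0.51), LIG1 (-0.46) and RRM2 (-0.25) joined POLE (-0.68) among the falls, POLE3 (0.52) was added to the rises, and RFC4, PCNA and POLA2 were no longer called. In MDA-MB-231 the falls of MCM5 (-0.75), GINS4 (-0.62), RFC1 (-0.94), POLA1 (-0.53), POLD1 (-0.66) and LIG1 (-0.65) were over 1.5 times as large in log2 as after quantile normalization. Falls in MDA-MB-231 numbered 10 without miR-365a-3p replicate 1, which was the lowest of its group for 25 of the 39 genes, and 11 without miR-365a-3p replicate 2, control replicate 1 or control replicate 3. Rises in SKOV3 numbered 5 without control replicate 1 and 4 without control replicate 2.

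**Figure D2:**
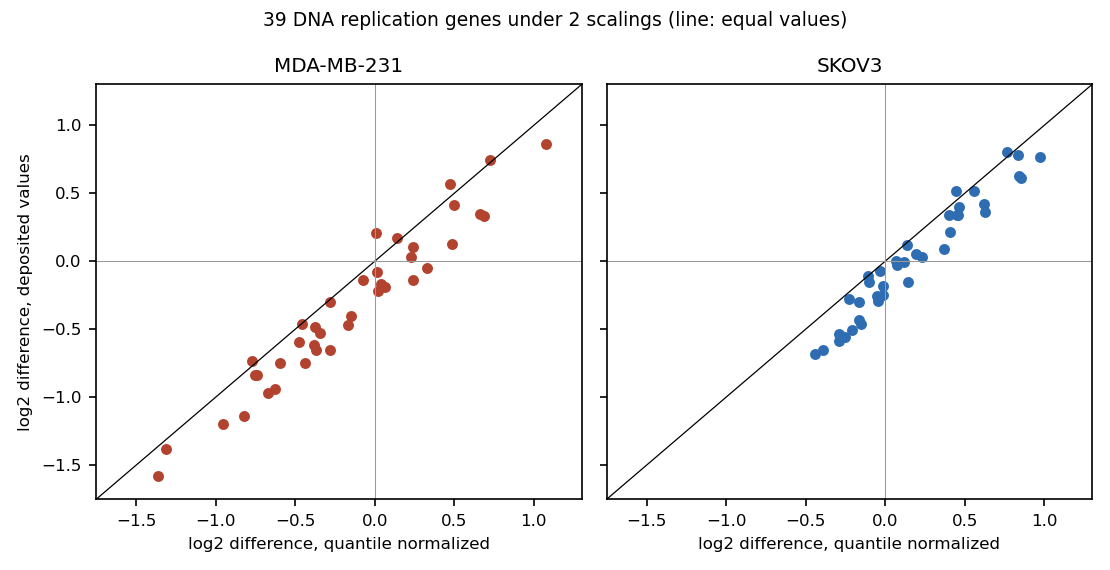
Difference of each of the 39 genes (log2) after quantile normalization (x axis) and on deposited values (y axis), MDA-MB-231 left and SKOV3 right, with a diagonal where both are equal. Most points lie below the diagonal, and the median falls from -0.17 to -0.40 in MDA-MB-231 and from 0.12 to -0.01 in SKOV3.

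All 6 genes of the helicase ring, MCM2 to MCM7, were called lower in MDA-MB-231, with a median difference of -0.70, and 0 of 6 were called in SKOV3, with a median of -0.05. At an unadjusted p under 0.05 the SKOV3 count was also 0. MCM2 read 8.95, 9.23 and 9.06 on the MDA-MB-231 control arrays and 8.01, 8.38 and 8.39 with miR-365a-3p. In SKOV3 it read 8.38 and 8.46 on control arrays and 8.08, 8.05 and 8.36 with miR-365a-3p. The MDA-MB-231 arrays were thus well apart, with a difference of -0.82 ± 0.12 (SE, adjusted p = 0.00143). The SKOV3 arrays nearly met after quantile normalization, with -0.25 ± 0.14 (adjusted p = 0.335). On deposited values they were apart, with MCM2 at most 8.38 with miR-365a-3p and 8.66 on each control array (-0.56, adjusted p = 0.0789). Deposited SKOV3 differences were -0.26 for MCM4, -0.29 for MCM5 and -0.15 for MCM6, but 0.005 for MCM3 and 0.05 for MCM7. No ring gene was called in SKOV3 in any alternative.

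MCM3 read 10.72, 10.40 and 10.50 in MDA-MB-231 controls and 9.53, 9.89 and 9.98 with miR-365a-3p, a difference of -0.74 ± 0.13 (SE, adjusted p = 0.00257). Its SKOV3 arrays overlapped, at 9.92 and 9.83 in controls and 9.92, 10.08 and 9.83 with miR-365a-3p. MCM4 fell by 0.67 (adjusted p = 0.00888) in MDA-MB-231. MCM6 had the largest difference of the ring and the widest spread: control arrays of MDA-MB-231 read 11.57, 11.22 and 11.18, and miR-365a-3p arrays 9.33, 10.14 and 10.56. The difference of -1.31 ± 0.37 (SE, adjusted p = 0.0284) leaned on replicate 1 of the miR-365a-3p arrays, and the SKOV3 miR-365a-3p arrays of MCM6 spread from 9.40 to 10.71 around the controls at 10.25 and 10.15.

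MCM5 fell by 0.44 (adjusted p = 0.0287) and MCM7 by 0.48 (adjusted p = 0.0397) in MDA-MB-231. The calls of MCM2, MCM3 and MCM4 in MDA-MB-231 held in every alternative run. Those of MCM5, MCM6 and MCM7 did not. MCM5 was not called without control replicate 1 or 3 or without any of the 3 miR-365a-3p arrays of that line, with an adjusted p of at most 0.104. MCM6 was not called without any of its 3 controls or without miR-365a-3p replicate 1 or 2 (at most 0.0936, difference -0.96 to -1.58 over all alternatives). MCM7 was not called without any of these same 5 arrays, without SKOV3 miR-365a-3p replicate 3 or without either SKOV3 control (at most 0.134).

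Among the factors that load or activate the ring, MCM10, which helps to switch the loaded helicase on, had the largest fall of the 39 genes in MDA-MB-231. Its MDA-MB-231 arrays read 8.83, 9.18 and 8.98 in controls and 7.48, 7.72 and 7.70 with miR-365a-3p. Its SKOV3 arrays read 8.04 and 7.81 in controls and 7.38, 7.81 and 7.70 with miR-365a-3p. The groups were more than a whole log2 unit apart in MDA-MB-231 (-1.36 ± 0.13, SE, adjusted p = 0.000149) and all but touched in SKOV3 (-0.29 ± 0.15, adjusted p = 0.279). CDT1, the loading factor that geminin holds in check, read 8.42, 8.52 and 8.80 in MDA-MB-231 controls and 7.50, 7.66 and 7.71 with miR-365a-3p (-0.96 ± 0.11, SE, adjusted p = 0.00034). In SKOV3 CDT1 read 8.06 and 7.96 in controls and 7.48, 7.78 and 7.59 with miR-365a-3p, with no overlap but no call (-0.39 ± 0.12, SE, adjusted p = 0.0676). On deposited values both MCM10 and CDT1 were called lower in SKOV3. CDC6, which recruits CDT1 and the ring to origins, lay near the floor in 3 of the 4 groups, and its differences of -0.08 and -0.04 carry little information.

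**Figure D3:**
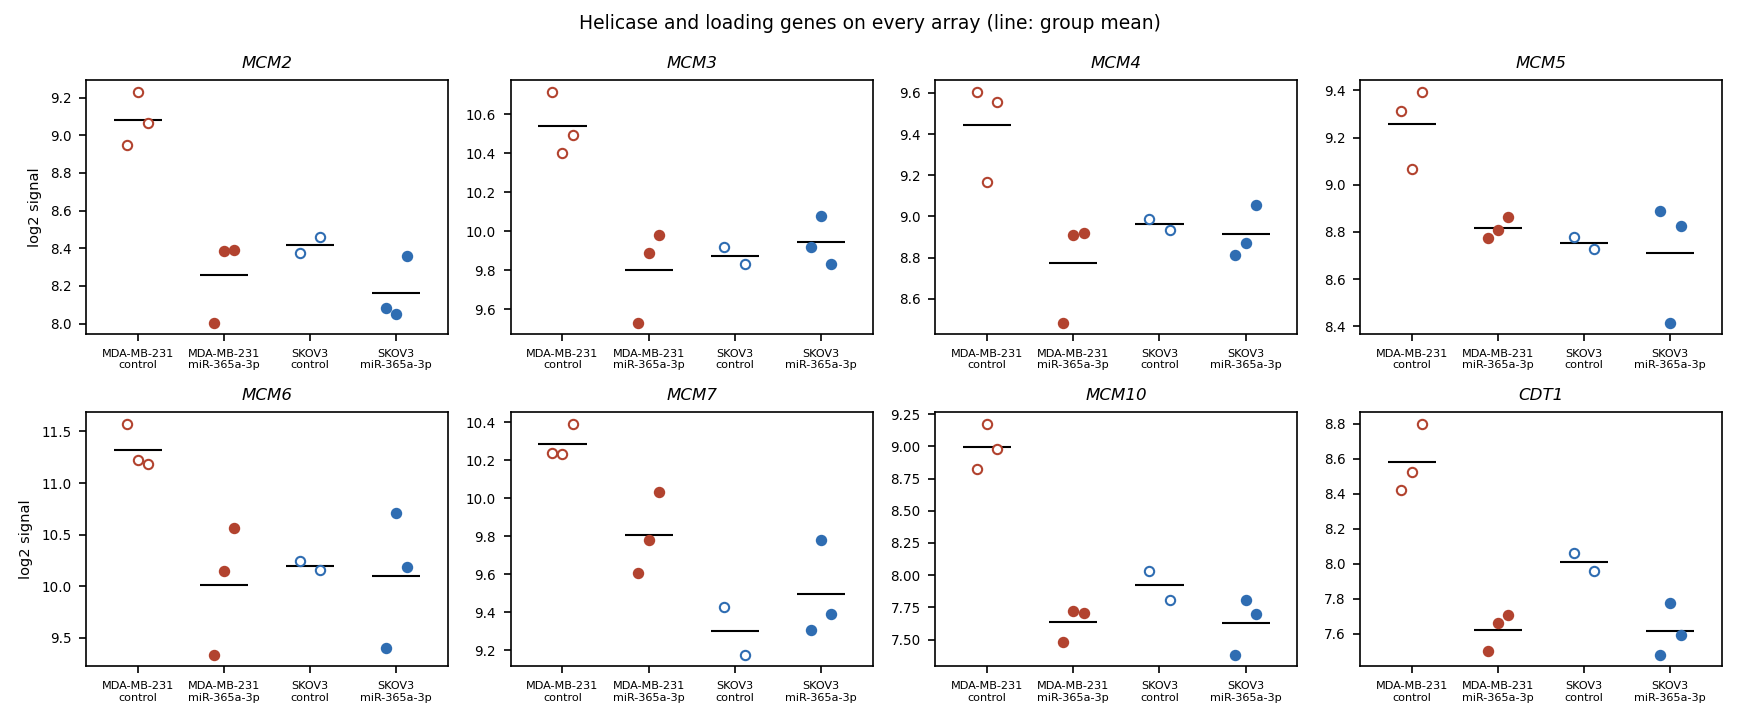
Signal (log2, y axis) of MCM2 to MCM7, MCM10 and CDT1 on each of the 11 arrays, with open points for control, filled points for miR-365a-3p and a line at each group mean. In MDA-MB-231 every miR-365a-3p array lies below every control array for all 8 genes, whereas in SKOV3 this holds for MCM2, MCM10 and CDT1 and the other groups overlap. All 8 genes were called lower in MDA-MB-231 from these same arrays, and the share of all rows without overlap was not counted.

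The GINS complex, which joins the ring in the active helicase, did not move as a unit. GINS2 rose in both lines, by 0.24 (adjusted p = 0.0159) in MDA-MB-231 and 0.46 (adjusted p = 0.00241) in SKOV3. The rise of GINS2 in MDA-MB-231 was not called on deposited values (0.11, adjusted p = 0.465), with centred arrays, with an intensity trend, or without miR-365a-3p replicate 2 or 3 or control replicate 1 of that line. GINS4 fell by 0.38 (adjusted p = 0.00905) in MDA-MB-231 and had a difference of -0.29 (adjusted p = 0.0779) in SKOV3, called on deposited values (-0.59, adjusted p = 0.012). GINS3 had differences of -0.17 (called on deposited values, -0.47) and 0.23 and GINS1, near the floor in SKOV3 controls, 0.02 and 0.07, without a call.

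Of the 39 genes, PRIM1, the catalytic subunit of primase, had the largest rise in each line after quantile normalization. It read 8.78, 8.84 and 8.81 in MDA-MB-231 controls and 10.10, 9.87 and 9.69 with miR-365a-3p, and 8.54 and 8.50 in SKOV3 controls and 9.77, 9.28 and 9.44 with miR-365a-3p. Every treated array thus lay above every control array of its line, by 1.07 ± 0.13 (SE, adjusted p = 0.000432) and 0.97 ± 0.14 (adjusted p = 0.00253) on average. PRIM2, the large regulatory subunit of primase, read 8.47, 7.78 and 7.92 in MDA-MB-231 controls and 8.72, 8.66 and 8.84 with miR-365a-3p, and 7.59 and 7.76 against 8.57, 8.37 and 8.60 in SKOV3. Its rises of 0.68 ± 0.16 (SE, adjusted p = 0.0129) and 0.84 ± 0.18 (adjusted p = 0.0152) were less firm. The call in MDA-MB-231 was lost on deposited values (0.33, adjusted p = 0.195), with centred arrays and without control replicate 3, and the call in SKOV3 was lost without either control (adjusted p at most 0.122).

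Of the polymerase alpha subunits bound to primase, POLA1, which carries the polymerase activity, fell by 0.35 (adjusted p = 0.0232) in MDA-MB-231 and had a difference of -0.01 in SKOV3. POLA2, the accessory subunit, had a difference of 0.33 (adjusted p = 0.157) in MDA-MB-231 and rose by 0.62 (adjusted p = 0.0362) in SKOV3. On deposited values the difference of POLA2 was -0.05 in MDA-MB-231 and its rise in SKOV3 was not called (0.42, adjusted p = 0.186). The POLA1 call was lost without miR-365a-3p replicate 1 or 2 or control replicate 1 of MDA-MB-231 (adjusted p at most 0.0774), and that of POLA2 in 12 of 18 alternatives, among them on leaving out 8 of the 11 arrays (at most 0.298).

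Polymerase epsilon, the leading strand enzyme, held the gene called lower in both lines after quantile normalization, its catalytic subunit POLE, to which 6 others were added on deposited values. POLE read 7.99, 8.06 and 7.89 in MDA-MB-231 controls and 7.37, 7.34 and 7.46 with miR-365a-3p, and 7.91 and 7.91 in SKOV3 controls and 7.35, 7.58 and 7.49 with miR-365a-3p. The differences were -0.59 ± 0.06 (SE, adjusted p = 0.000242) and -0.44 ± 0.07 (adjusted p = 0.0038), and since the mean of the treated MDA-MB-231 arrays lay at the floor, that fall is measured against the floor. On deposited values they were -0.75 and -0.68. POLE2, the second subunit, rose instead. It read 9.77, 9.93 and 9.91 against 10.44, 10.46 and 10.21 in MDA-MB-231 (0.50 ± 0.09, SE, adjusted p = 0.00369) and 8.37 and 8.33 against 9.38, 9.09 and 9.14 in SKOV3 (0.85 ± 0.10, adjusted p = 0.000925). The calls of POLE and POLE2 held in every alternative in both lines. POLE3 and POLE4, the small histone-fold subunits, had differences of 0.01 and 0.48 in MDA-MB-231 and 0.44 and 0.77 in SKOV3, of which only POLE4 in SKOV3 was called (adjusted p = 0.0386), and not without any of the 5 SKOV3 arrays or without miR-365a-3p replicate 2 or 3 or control replicate 1 of MDA-MB-231 (at most 0.271).

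Polymerase delta, the lagging strand enzyme, had 1 call after quantile normalization. Its catalytic subunit POLD1 fell by 0.37 (adjusted p = 0.0332) in MDA-MB-231, a call lost without miR-365a-3p replicate 1 or control replicate 1 or 3 of that line or without either SKOV3 control (at most 0.117). POLD2, POLD3 and POLD4 were called in neither line, with differences from 0.02 to 0.48 in MDA-MB-231 and from -0.17 to 0.14 in SKOV3. POLD3 was called lower in MDA-MB-231 on deposited values (-0.22, adjusted p = 0.00607) and not after quantile normalization (0.02).

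In the clamp loader, RFC1, the large subunit, fell by 0.62 (adjusted p = 0.00138) in MDA-MB-231 (-0.94 on deposited values), a call that held in every alternative, and had a difference of -0.21 in SKOV3 (adjusted p = 0.288, and on deposited values -0.51, adjusted p = 0.0346). RFC3, a small subunit, read 8.62, 8.54 and 8.51 in MDA-MB-231 controls and 9.19, 9.18 and 9.30 with miR-365a-3p. In SKOV3 it read 7.85 and 7.85 in controls and 8.53, 8.41 and 8.48 with miR-365a-3p. The groups were well apart, with an SD of at most 0.0668, with rises of 0.66 ± 0.04 (SE, adjusted p = 2.4e-05) and 0.63 ± 0.05 (adjusted p = 0.000108). Both were called in every alternative, but on deposited values their size was 0.35 and 0.36. RFC4 (0.56, adjusted p = 0.0268) and the clamp itself, PCNA (0.46, adjusted p = 0.017), rose in SKOV3 and had differences of 0.14 and 0.23 without a call in MDA-MB-231. Both SKOV3 calls were lost on deposited values and without either SKOV3 control (at most 0.207 and 0.126), and that of RFC4 also without SKOV3 miR-365a-3p replicate 1. RFC2 and RFC5 were called in neither line, with differences of 0.24 and 0.06 in MDA-MB-231 and 0.37 and 0.41 in SKOV3.

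RPA coats the single strands that the helicase exposes. Its smallest subunit, RPA3, read 10.70, 10.56 and 10.07 in MDA-MB-231 controls and 11.39, 11.11 and 11.02 with miR-365a-3p, and 9.96 and 9.81 against 10.84, 10.66 and 10.66 in SKOV3. The groups did not overlap, with rises of 0.73 ± 0.16 (SE, adjusted p = 0.00884) and 0.83 ± 0.18 (adjusted p = 0.0145), the second of which was lost without either SKOV3 control (at most 0.128). RPA2, the middle subunit, fell by 0.38 in MDA-MB-231 (adjusted p = 0.0282), a call lost without any of the 3 miR-365a-3p arrays or without control replicate 2 or 3 (at most 0.099). RPA1, the large subunit, had differences of -0.28 and 0.45 and was called in neither line.

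**Figure D4:**
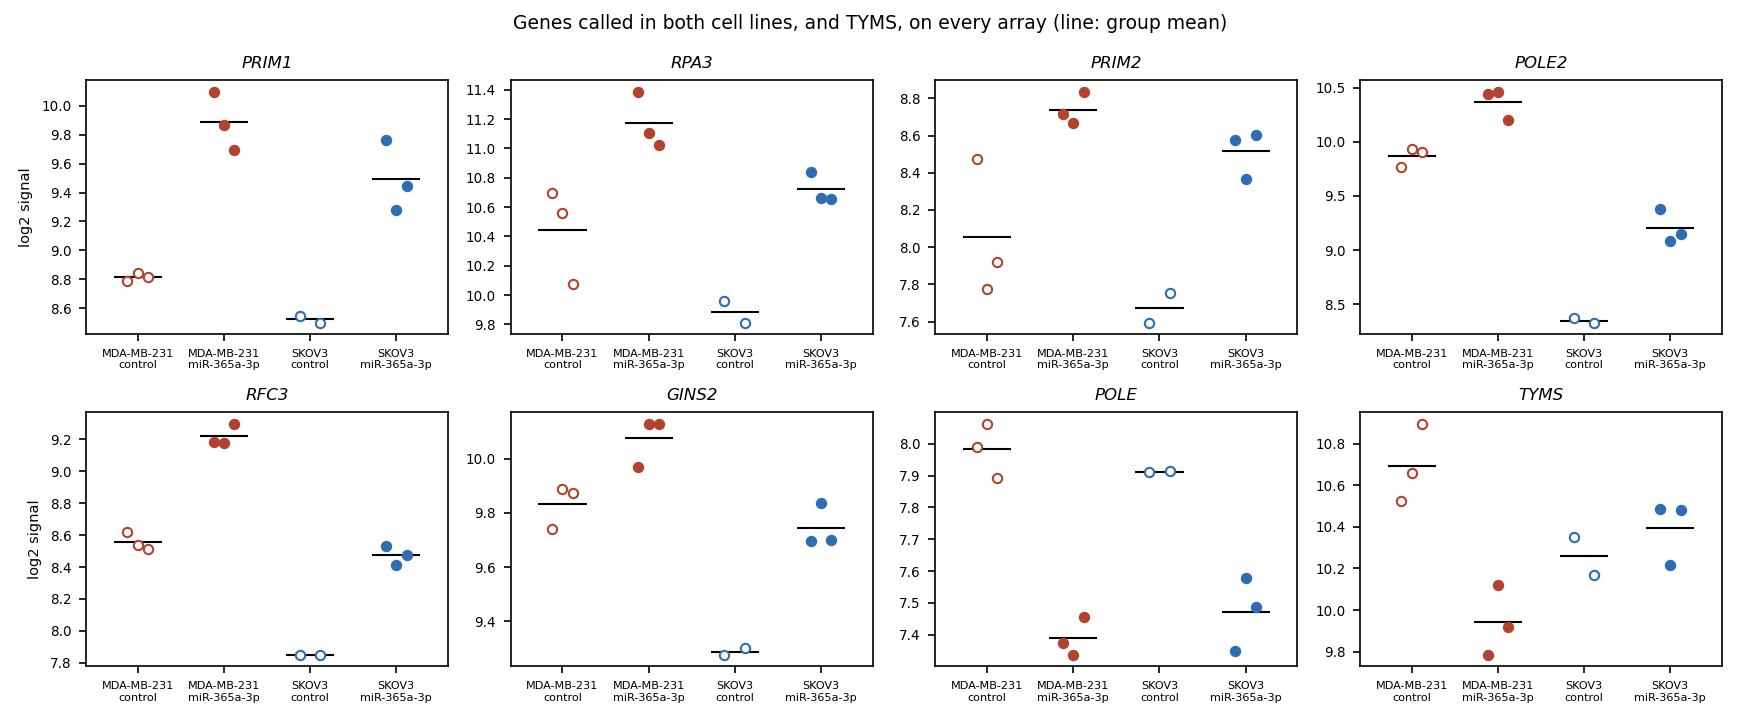
Signal (log2, y axis) of PRIM1, RPA3, PRIM2, POLE2, RFC3, GINS2, POLE and TYMS on each of the 11 arrays, with open points for control, filled points for miR-365a-3p and a line at each group mean. The 6 genes that rose have every treated array above every control array of the same line, POLE has the reverse in both lines, and TYMS has it in MDA-MB-231 alone. The genes were chosen by calls from these same arrays, and the share of all rows without overlap was not counted.

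Okazaki fragment maturation was represented by the flap nuclease FEN1 and the ligase LIG1, which both fell in MDA-MB-231, by 0.46 (adjusted p = 0.0304) and 0.28 (adjusted p = 0.0121). In SKOV3 the differences were 0.40 (adjusted p = 0.113) and -0.15 (adjusted p = 0.269). On deposited values LIG1 was called lower in both lines (-0.65 and -0.46). The call of LIG1 held in every alternative, and that of FEN1 was lost without miR-365a-3p replicate 1 or 2 or control replicate 1 or 3 of MDA-MB-231 and without either SKOV3 control (at most 0.108).

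Of the enzymes of nucleotide supply, TYMS, which makes thymidylate, read 10.52, 10.66 and 10.89 in MDA-MB-231 controls and 9.78, 10.12 and 9.92 with miR-365a-3p. In SKOV3 it read 10.35 and 10.17 in controls and 10.49, 10.22 and 10.48 with miR-365a-3p. It fell by 0.75 ± 0.12 (SE, adjusted p = 0.00213) in MDA-MB-231 and overlapped in SKOV3 (0.13 ± 0.14, adjusted p = 0.699). The ribonucleotide reductase subunits RRM1 and RRM2 were called in neither line. RRM1 had a difference of -0.77 in MDA-MB-231 with an SE of 0.32 (adjusted p = 0.126), its control arrays spreading from 11.10 to 11.99, and RRM2 had -0.15 (adjusted p = 0.0596). On deposited values RRM2 was called lower in both lines (-0.40 and -0.25).

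Whether a response differed between the lines was tested as the MDA-MB-231 difference minus the SKOV3 difference. It was below 0 for 35 of the 39 genes, but only 2 (5.13%) passed the threshold, where 2.54% of all rows did. These were MCM10 (-1.07 ± 0.20, SE, adjusted p = 0.0288) and TYMS (-0.88 ± 0.18, adjusted p = 0.0459). At an unadjusted p under 0.05 the number was 16, each lower in MDA-MB-231, among them MCM3 (adjusted p = 0.072) and FEN1 (adjusted p = 0.0646). For none of the 6 ring genes is the fall in MDA-MB-231 therefore shown to differ from the response in SKOV3. The shares of all rows below 0 or at an unadjusted p under 0.05 were not counted. The 35 and the 16 thus have no base rate and show no trait of these genes. The MCM10 call held in 9 of 17 settings and was lost without any miR-365a-3p array or control replicate 3 of MDA-MB-231, miR-365a-3p replicate 2 or 3 of SKOV3, or either SKOV3 control (adjusted p at most 0.142). The TYMS call held in 4 of 17, was lost on deposited values and on leaving out 9 of the 11 arrays, and had an adjusted p of at most 0.222.

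The controls alone were also compared between the lines. This comparison shares its arrays with the others, and its values enter the difference of responses with the opposite sign. Genes higher in MDA-MB-231 controls therefore tend by construction to a response difference below 0, and the 2 results are not independent. Of the 39 genes, 14 (35.9%) were called higher in MDA-MB-231 controls, where 7.76% of all rows were, and 1 (2.56%) lower, where 8.34% were. The difference between controls was above 0 for 35 genes. The share of all rows above 0 was not counted, so the 35 has no base rate. The median was 0.31, beside 0.003 for all rows and 0.009 for rows above the floor. The difference ran from -0.80 for POLA2 (adjusted p = 0.00973) to 1.52 for POLE2 (adjusted p = 1.9e-05), with FEN1 at 1.36, RPA1 at 1.28, MCM10 at 1.07 and MCM7 at 0.98. Without SKOV3 control replicate 1 or replicate 2 the 14 became 8. The calls of MCM7, MCM10, GINS2, RFC3, RFC4, POLE2, RPA1 and FEN1 held in every alternative, and that of POLA2 was lost without SKOV3 control replicate 1.

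**Figure D5:**
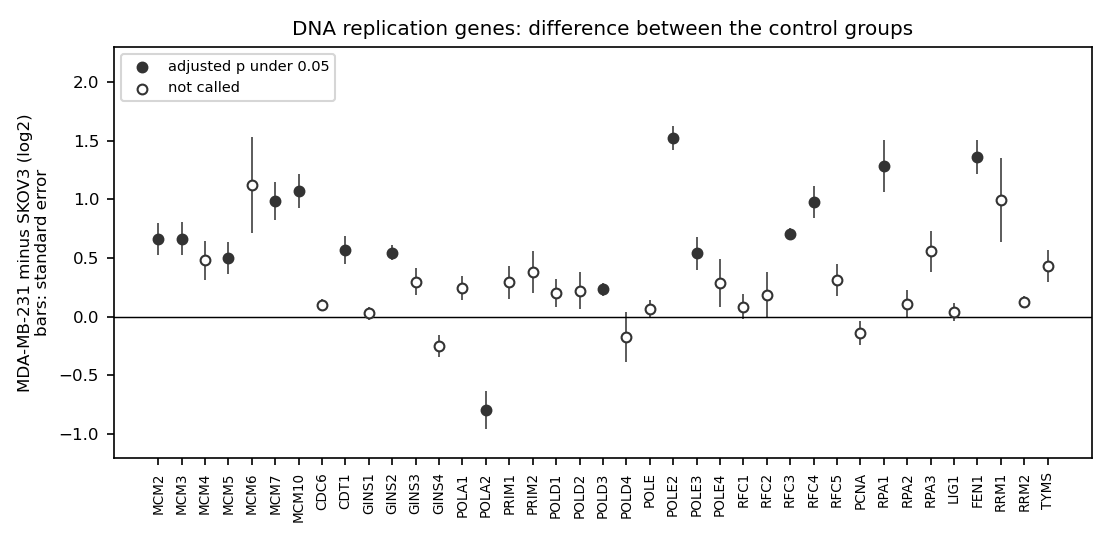
MDA-MB-231 control minus SKOV3 control (log2, y axis) for each of the 39 genes, with standard errors as bars and filled points where the adjusted p was below 0.05. The points lie above 0 for 35 genes, a count with no base rate among all rows, and run from POLA2 at -0.80 to POLE2 at 1.52.

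The E2F letters stood in promoters of genes that rose and of genes that fell. Among the 18 genes with the letters, 9 fell and 3 rose in MDA-MB-231 and 1 fell and 6 rose in SKOV3, with median differences of -0.23 and 0.10. Among the 15 genes in the table without them, 4 fell and 2 rose in MDA-MB-231 and 0 fell and 3 rose in SKOV3, with medians of 0.01 and 0.37. These are descriptions with no test. MCM3 and RFC3, whose stretches are printed above, both hold them, and fell and rose in MDA-MB-231, respectively.

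Other genes of replication were listed by function in 5 lists, 61 genes in all, each with a row, 10 of them under an older symbol. In MDA-MB-231 14 rose (23.0%, where 14.4% of all rows did) and 23 fell (37.7%, against 11.7%), and in SKOV3 9 rose (14.8%, against 7.25%) and 4 fell (6.56%, against 7.11%), with medians of -0.07 and 0.04. Of 15 genes of origin recognition and firing, 4 rose and 5 fell in MDA-MB-231 and 3 rose in SKOV3, with the origin recognition subunits ORC3 (1.08 and 1.01) and ORC5 (1.13 and 0.94) called higher in both lines. The largest of the falls was TOPBP1 (-1.53, adjusted p = 0.00146), which was not called in SKOV3 (-0.36, adjusted p = 0.509). Of 15 genes of fork protection and loader variants, 4 rose and 5 fell in MDA-MB-231 and 3 rose in SKOV3, with RNASEH2B, a subunit of the nuclease that cuts RNA from DNA, called higher in both (0.88 and 1.01). Among the falls of this list TOP2A was the largest (-1.92, adjusted p = 0.008), and it was not called in SKOV3 (-1.22, adjusted p = 0.129). TOPBP1 and TOP2A are named after their values were seen. Of 5 genes of chromatin assembly at the fork, 3 fell in MDA-MB-231 and 1 in SKOV3. Of 7 other nucleotide enzymes, 2 rose and 2 fell in MDA-MB-231 and 1 rose in SKOV3.

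Of 19 E2F and S phase regulators, 4 rose and 8 fell in MDA-MB-231 and 2 rose and 3 fell in SKOV3. Of all rows, 14.4% rose and 11.7% fell in MDA-MB-231, and 7.25% rose and 7.11% fell in SKOV3. The SKOV3 counts rest on few genes. TFDP1, the partner with which E2F factors bind DNA, was called lower in both lines (-1.57 and -1.07, adjusted p = 2.4e-05 and 0.000587), as were the activators E2F3 (-1.16 and -0.68) and E2F2 (-0.52 in each, with the treated MDA-MB-231 mean near the floor). Other members of the same families rose: TFDP2, the other partner, was called higher in both lines (0.68 and 0.34), as was E2F6 (0.40 and 0.32), and the activator E2F1 was called higher in MDA-MB-231 (0.51, adjusted p = 0.00463) and read 0.21 (adjusted p = 0.298) in SKOV3. TFDP2, E2F6 and E2F1 are named after their values were seen. Of all 61 genes 2 (3.28%, against 2.54% of all rows) responded differently in the lines and are named after their values were seen: E2F7, a repressor of E2F targets (-1.50 in MDA-MB-231 and -0.10 in SKOV3, adjusted p of the difference = 0.00108), and ASF1B, a histone chaperone (-0.88 and -0.17, adjusted p = 0.0034). The control mean of E2F7 was 9.46 in MDA-MB-231 but 7.71 in SKOV3, little above the floor (7.4341), which left little room for a fall in SKOV3. The part of these regulators in the falls of the 39 genes was not tested.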

How the data were processed

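MDA-MB-231 and SKOV3 cells were profiled on 11 arrays. The authors amplified RNA to biotin-labelled cRNA, used lumi for quantile normalization, and deposited 1 value on a log scale, treated here as log2, for each gene symbol and array. Whether that scale is plain log2 or a variance-stabilizing one, how probes were combined and how background was treated are not given in the sources used here. The deposited columns did not share 1 distribution, so they were quantile normalized again across the 11 arrays. The means of the 4 groups were fitted with limma 3.58.1 in R 4.3.3, with eBayes and Benjamini-Hochberg adjustment over 31325 rows at 0.05. Arrays give no counts, so their number limits the precision. A group mean at or below the 60th percentile (7.4341) was called near the floor. The fit was tested on simulated data. Sequences were read and counted with Python 3.11.15.

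Groups came from the labels. The genes, lists and tests were chosen with earlier results of these data known. Values on every array are given for genes whose response differed between lines and for the 5 largest rises and falls (only 1 fall existed) called in both lines, and MCM2, MCM3, MCM6 and CDT1 were added after their values were seen. Genes of the other lists are named where called in both lines, at most 3 a direction, besides those said to be named after their values were seen. Alternatives were other scalings, each line fitted alone, a replicate block, a filter on dim rows, an intensity trend and each array left out. Classes of protein length and seed matches in transcripts were not analysed here.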

Additional observations from a re-analysis of the deposited data

Results flagged for a closer look

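MCM10 and TYMS stood out because their response differed between the cell lines by a test of the difference itself, the MDA-MB-231 difference minus the SKOV3 difference on the log2 scale. For MCM10 it was -1.07 (adjusted p = 0.0288), from -1.36 in MDA-MB-231 and -0.29 in SKOV3. The treated means of MCM10 were 7.63 in each line, little above the floor, and SKOV3 controls, at 7.92, left less room for a fall. For TYMS it was -0.88 (adjusted p = 0.0459), from -0.75 in MDA-MB-231 and 0.13 in SKOV3. The direction was the same in all 17 settings for both genes, but neither passed the threshold in all of them. Groups of 2 or 3 arrays are too small for a test of a lone outlying array.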

How the results depend on the processing

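In MDA-MB-231 14 of 23 calls (10 lower, 4 higher) held in every alternative, in SKOV3 5 of 11, between controls 8 of 15, and for the difference 0 of 2. In SKOV3, and likewise in both lines, the 1 fall became 7 on deposited values, 6 with centred arrays, 3 with cyclic loess, a filter on dim rows or the replicate block, and 2 with an intensity trend. The cause was not tested. Differing responses numbered 1 on deposited values, with the replicate block or with an intensity trend, and 4 with the filter, which tests fewer rows. Over the arrays left out, falls ranged from 10 to 18 in MDA-MB-231, from 1 to 2 in SKOV3 and from 1 to 2 in both lines, rises in SKOV3 from 4 to 10, differing responses from 0 to 2, and genes higher and lower in MDA-MB-231 controls from 8 to 15 and from 0 to 1. The replicate block gave 15 falls and 6 rises in MDA-MB-231, 9 rises in SKOV3, and 14 genes higher and 2 lower in MDA-MB-231 controls. Deviations of same-numbered arrays from their group means correlated at -0.13, 0.04 and 0.20 in MDA-MB-231 and at 0.04 and -0.06 in SKOV3. With 2 SKOV3 controls the deviations of 1 mirror those of the other, and groups of 3 are constrained too. These values therefore cannot decide whether the replicate numbers pair the arrays. Protein length classes and the seed search were not run. Signals near the floor (CDC6, GINS1 in SKOV3 controls, POLE in treated MDA-MB-231) limit what those differences show.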
